A study of Mus musculus with 3 samples.

Results

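The 10 genes described here encode the CDK inhibitors and the pocket proteins, the brakes of the G1 phase of the cell cycle. They were chosen by name: the 3 CIP/KIP inhibitors Cdkn1a, Cdkn1b and Cdkn1c, the 4 INK4 genes Cdkn2a, Cdkn2b, Cdkn2c and Cdkn2d, and the 3 pocket protein genes Rb1, Rbl1 and Rbl2. They are 10 of the 55536 genes, and of the 22028 protein-coding genes, of the GENCODE M21 annotation of the mouse genome. For each gene the question was whether a region bound by Setd1a, a histone methyltransferase that acts on lysine 4 of histone H3, lay at its transcription start site (TSS) or in its body. Setd1a regions were mapped by CUT & RUN, in which an antibody tethers a nuclease that releases the DNA around the bound protein for sequencing.

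The cells were adult neural stem cells (NSCs), labelled as neural progenitor cells, derived from the dentate gyrus of mice 7 to 8 weeks old and grown as cultures. The mice carried Hopx-CreERT2, Setd1a fl/fl and H2B-GFP, and the libraries were labelled WT, so all of them came from cells with the floxed Setd1a alleles and the inducible Cre gene. Hopx drives this Cre in quiescent radial glia-like cells, and the cultures are a model of quiescence outside the tissue niche. Cells were expanded with 20 ng/ml FGF2 and 20 ng/ml EGF and then kept without EGF, in FGF2 and BMP4, each at 20 ng/ml, to induce quiescence, and they were taken at day 5. There were 2 libraries with a Setd1a antibody, from independent cultures, and 1 library with control IgG.

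The values analysed were 6969 intervals, the peaks found in both Setd1a libraries, with widths from 233 to 6529 bp (median, 465 bp). The list gives the position of each peak and no height, and the read depth of the libraries is unknown. A gene without a peak is therefore a gene absent from this list, not one shown to lack Setd1a. With 1 list for both libraries there was no spread between replicates and no comparison of conditions, and no test was made. All counts below are descriptions of this list. In the markers used to look at the labelled cell type, 6 of 9 neural stem cell genes had a peak within 3000 bp of a TSS. Sox2, Nes and Gfap were among them, while Hopx, Fabp7 and Slc1a3 had none. Such a peak was listed for 0 of 6 neuronal genes, 1 of 4 oligodendrocyte lineage genes (Olig2), 0 of 3 microglial genes and 0 of 3 endothelial genes. The share over all protein-coding genes was 22.9%. Expression was not measured in these libraries.

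As background, cyclin D with Cdk4 or Cdk6, and later cyclin E with Cdk2, phosphorylate the pocket proteins and so release the E2F transcription factors that drive entry into S phase. INK4 proteins bind Cdk4 and Cdk6, CIP/KIP proteins bind cyclin-CDK complexes and above all those of Cdk2, and the pocket proteins Rb, p107 and p130 hold E2F factors at their target promoters. In adult NSCs these proteins are known for holding cells out of the cycle, and loss of several of them is known to raise NSC proliferation.

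Setd1a peaks were listed at the starts of 2 of the 10 genes, Cdkn1b and Cdkn2d, with "at the start" meaning within 3000 bp of any annotated TSS. Among all protein-coding genes, 22.9% had such a promoter peak (5049 of 22028). Both members with a peak had it over a TSS. So did 3596 of the 5049 protein-coding genes with a promoter peak, which is 16.3% of all protein-coding genes. A peak within 1000 bp was listed for 21.4% of all protein-coding genes. By family, 1 of 3 CIP/KIP genes, 1 of 4 INK4 genes and 0 of 3 pocket protein genes had a promoter peak. None of the 10 genes had a peak in its body outside the 3000 bp window, against 4.49% of protein-coding genes. The members' share lay near the share of all genes, so the count by itself does not set them apart. The 10 genes have 41 annotated transcripts with 40 distinct TSSs, of which 5 had a peak within 3000 bp, all 5 in Cdkn1b and Cdkn2d, and 35 had none. These TSSs include starts of noncoding transcripts inside the genes. The share of TSSs over all protein-coding genes was not computed, so this count cannot be set against the shares of genes above.

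The promoter sequences show how unlike the starts with and without a peak can be, and also how alike. Each is the 250 bases before the first annotated TSS, 5′ to 3′ along the gene, from RefSeq's GRCm38.p6 genome (the mm10 build). Capitals mark matches to short promoter motifs on either strand: E2F sites (TTTCCCGC, TTTCGCGC, TTTGCCGC or TTTGGCGC), the cell cycle homology region CHR (TTTGAA), the CCAAT box, the GC box (GGGCGG), the cAMP response element CRE (TGACGTCA), the E-box (CACGTG) and the TATA box (TATAAA). Cdkn1b (chr6:134920151-134920400, plus strand) and Cdkn2d (chr9:21291408-21291657, minus strand) are the promoters with a Setd1a peak, and all 250 bases shown of each lay in it. Rbl1 (chr2:157204535-157204784, minus strand) is shown as a CpG-rich promoter and Cdkn1a (chr17:29090726-29090975, plus strand) as a CpG-poor one, both with 0 bases in a peak.
Cdkn1b: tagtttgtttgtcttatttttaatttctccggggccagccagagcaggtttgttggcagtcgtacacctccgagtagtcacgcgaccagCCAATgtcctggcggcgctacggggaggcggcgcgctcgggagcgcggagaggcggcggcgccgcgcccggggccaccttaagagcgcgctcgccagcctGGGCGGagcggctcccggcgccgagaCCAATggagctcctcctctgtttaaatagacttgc
Cdkn2d: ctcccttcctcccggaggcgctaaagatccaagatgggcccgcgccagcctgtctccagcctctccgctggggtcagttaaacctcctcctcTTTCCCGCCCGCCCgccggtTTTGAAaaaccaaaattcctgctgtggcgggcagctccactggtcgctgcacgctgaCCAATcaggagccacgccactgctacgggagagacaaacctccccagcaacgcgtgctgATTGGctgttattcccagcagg
Rbl1: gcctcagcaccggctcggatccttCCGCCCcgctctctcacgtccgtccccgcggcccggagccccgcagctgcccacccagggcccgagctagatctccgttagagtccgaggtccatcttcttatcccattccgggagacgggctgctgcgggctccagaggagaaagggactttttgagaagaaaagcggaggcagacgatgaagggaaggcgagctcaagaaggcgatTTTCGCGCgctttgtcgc
Cdkn1a: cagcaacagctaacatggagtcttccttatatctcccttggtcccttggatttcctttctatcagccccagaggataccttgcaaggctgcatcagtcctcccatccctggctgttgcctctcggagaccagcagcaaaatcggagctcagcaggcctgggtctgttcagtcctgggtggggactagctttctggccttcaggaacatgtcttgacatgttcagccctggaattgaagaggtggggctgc

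The Cdkn1b stretch held 28 CpG dinucleotides at 64.4% GC, with CCAAT boxes that began 161 and 35 bases before the TSS and a GC box at 61. The Cdkn2d stretch held 16 CpG at 61.6% GC. In it an E2F match began 158 bases before the TSS and overlapped a GC box on the opposite strand at 154, which itself overlapped another at 150. A CHR match followed at 138, and CCAAT boxes stood at 81 and, on the opposite strand, at 22. The Rbl1 stretch held 24 CpG at 63.6% GC, close to that of Cdkn1b, with an E2F match 18 bases before the first annotated TSS and a GC box on the opposite strand at 226. The Cdkn1a stretch held 2 CpG at 54.4% GC and none of these letters. It stands for the first annotated start of Cdkn1a only. A later coding TSS of this gene, at 29093769, had 2 GC boxes, which began 104 and 46 bases before it. A match is a run of letters and not a measured binding site.

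**Figure D1:**
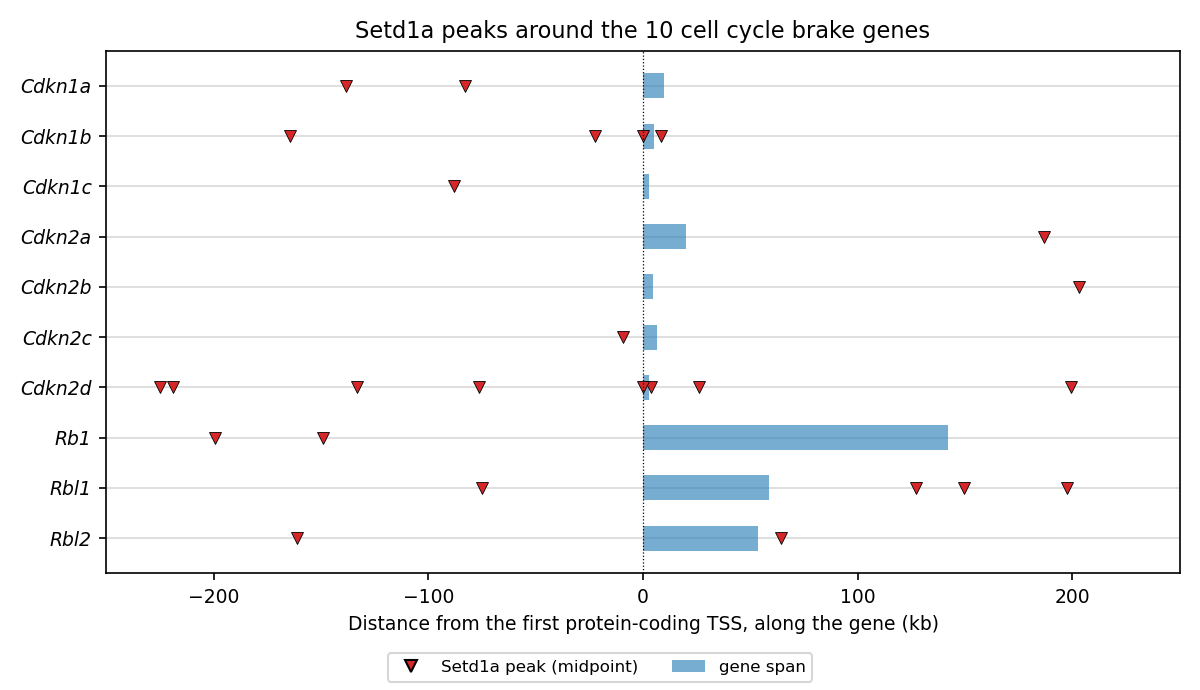
Setd1a peaks around each of the 10 genes. The horizontal axis is the distance from the first protein-coding TSS in kb, along the direction of the gene, each row is a gene, the blue bars are the gene spans and the red triangles are the midpoints of peaks. Peaks stand at the start of Cdkn1b and Cdkn2d. Cdkn2a, Cdkn2b and Rb1 have 0 peaks within 100 kb of their first coding TSS, as do 41.5% of protein-coding genes.

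Of the CIP/KIP genes, Cdkn1b encodes p27, an inhibitor whose loss is known to enlarge many organs, and it carried the peak. The gene lies on chromosome 6 from 134920401 to 134925513 on the plus strand. Its peak, 134920090 to 134920671, was 582 bp wide, wider than 57.9% of the 4578 promoter peaks of protein-coding genes, whose median was 517 bp. It was centred almost on the TSS, with its midpoint at position -20.5 bp from it, and it covered both annotated TSSs. Of its bases 311 lay upstream of the gene and 271 in the noncoding part of the first exon. It ended short of the start codon, which lies 519 bp from the TSS, so that 0 of its bases were coding. It held 53 CpG at 64.6% GC, and no other gene had a TSS within 3000 bp of it. A further 2 peaks lay within 50 kb. A 370 bp peak 21755 bp upstream lay 5 bp from a TSS of 2810454H06Rik and 41 bp from one of Gpr19. A 637 bp peak 7670 bp downstream lay near the start of the noncoding RNA gene Lockd. The 3 peaks within 100 kb of the start of Cdkn1b were more than the median of 1 for protein-coding genes.

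Cdkn1a encodes p21, the inhibitor best known as a target of p53, and no peak was listed near any of its 5 TSSs. The gene lies on chromosome 17 from 29090976 to 29100727 on the plus strand. Its nearest peak lay 82759 bp upstream, a 447 bp peak over the TSS of Stk38, with Srsf3 in between. The first coding TSS of Cdkn1a stood in CpG-poor sequence. In the 500 bp on either side the CpG ratio, which is the observed CpG count over the count expected from the C and G content, was 0.126, above that of 12.1% of protein-coding genes. A later coding TSS of the same gene, at 29093769, had a CpG ratio of 0.622 and no peak either.

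Cdkn1c encodes p57, an imprinted inhibitor that is known to keep adult hippocampal stem cells quiescent. It lies on chromosome 7 from 143458339 to 143461050 on the minus strand, in sequence of 69.3% GC with a CpG ratio of 0.883, and its 5 TSSs had no peak. The nearest, 87857 bp upstream, was a 630 bp peak over the TSS of Nap1l4, beyond Phlda2 and Slc22a18.

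Of the INK4 genes, Cdkn2d encodes p19Ink4d and carried the wider of the members' peaks. The gene lies on chromosome 9 from 21288410 to 21291407 on the minus strand. Its peak, 21290729 to 21291813, was 1085 bp wide, wider than 92.8% of promoter peaks. It covered all 3 annotated TSSs, with its midpoint 136 bp into the gene from the first. Whereas the Cdkn1b peak stopped before the start codon, the Cdkn2d peak ran over it: 406 bp lay upstream, 458 bp in noncoding exon, 141 bp in coding exon and 80 bp in intron. It covered 22.7% of this short gene, against 5.3% for the peak of Cdkn1b. It held 71 CpG at 61.9% GC. Its edge also lay 2760 bp from a TSS of the neighbouring Kri1, which had a 468 bp peak of its own over its TSS, 2623 bp from the Cdkn2d peak. With a peak over Atg4d 25216 bp away, Cdkn2d had 2 other peaks within 50 kb, and 4 within 100 kb of its start.

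**Figure D2:**
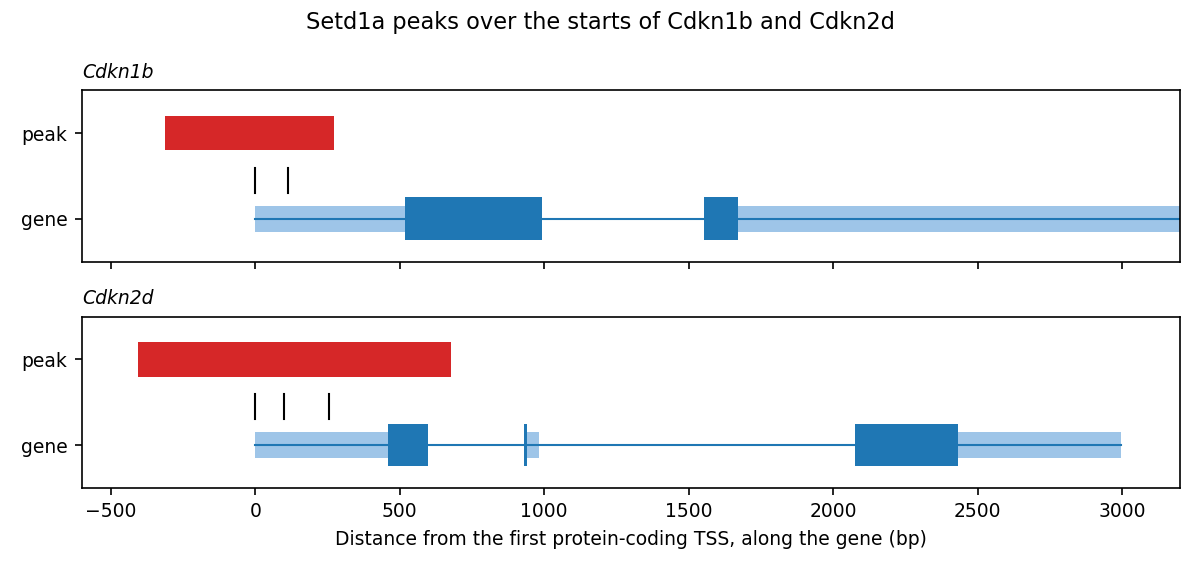
The Setd1a peaks of Cdkn1b and Cdkn2d drawn to scale on their genes. The horizontal axis is the distance from the first coding TSS in bp along the gene, dark tall boxes are coding exon, pale boxes are noncoding exon, short ticks are TSSs and the red bar is the peak, and Cdkn1b runs on past the right edge. The 582 bp peak of Cdkn1b ends before the coding sequence, while the 1085 bp peak of Cdkn2d reaches past the start codon.

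Cdkn2a and Cdkn2b lie side by side on chromosome 4 and were the members farthest from any peak. Cdkn2a, from 89274471 to 89294653 on the minus strand, encodes p16Ink4a and, from an upstream first exon, p19Arf, which protects p53 by binding Mdm2. Cdkn2b, from 89306299 to 89311039 on the minus strand, encodes p15Ink4b. Both shared 1 nearest peak, a 233 bp interval in the gene Gm12602 that had the smallest width in the list, contained no CpG dinucleotides and had no TSS within 3000 bp. It lay 174139 bp from the nearer TSS of Cdkn2a, that of p16Ink4a, 186600 bp from that of p19Arf, and 202986 bp from the TSS of Cdkn2b. The 2 starts of Cdkn2a differed in sequence but not in their absence from the list: the CpG ratio was 0.983 at the p19Arf start and 0.538 at the p16Ink4a start. That of Cdkn2b was 0.746.

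Cdkn2c encodes p18Ink4c and was the member nearest to the 3000 bp limit without passing it. It lies on chromosome 4 from 109660876 to 109667189 on the minus strand. A 446 bp peak over the TSS of Faf1, its upstream neighbour, lay 8955 bp from its first TSS and 10772 bp from the other, with no protein-coding gene between. Of protein-coding genes without a promoter peak, 5.76% lay closer to a peak. Inside the limit both Cdkn1b and Cdkn2d stood at 0 bp.

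None of the pocket protein genes had a peak at a start or in the gene body. Rb1 encodes the retinoblastoma protein and extends over 142150 bp of chromosome 14, from 73183673 to 73325822 on the minus strand. Its start was the most CpG-rich of the members, at 75.9% GC and a CpG ratio of 1.05, above 99.4% of protein-coding genes, and its 6 TSSs had no peak. The nearest was a 248 bp peak 148754 bp upstream, beyond Itm2b, that lay in no gene and had no TSS within 3000 bp.

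Rbl1 encodes p107, the pocket protein that is highest in cycling cells, and Rbl2 encodes p130, the one that rises in quiescence and forms the DREAM repressor with E2F4 and the MuvB proteins. Rbl1 lies on chromosome 2 from 157145893 to 157204534 on the minus strand. Its nearest peak, 506 bp wide, lay 74510 bp upstream over the TSSs of Rpn2 and Mroh8. Rbl2 lies on chromosome 8 from 91070057 to 91123844 on the plus strand. An 866 bp peak over the TSS of Aktip lay 18808 bp from its nearest TSS, which is that of an internal transcript with a retained intron, and 63880 bp from its first coding TSS.

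**Figure D3:**
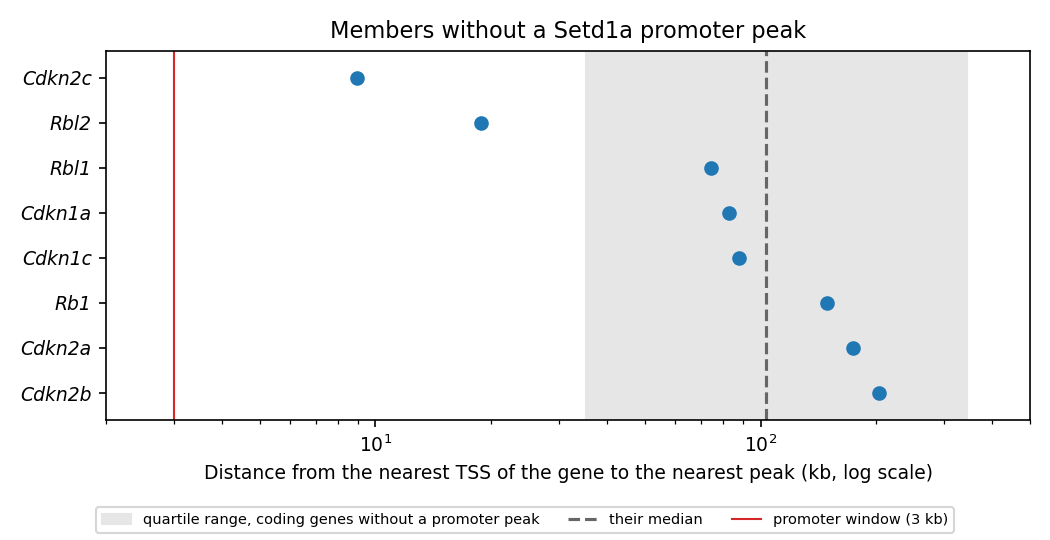
Distance from each of the 8 members without a promoter peak to its nearest Setd1a peak. The horizontal axis is the distance in kb on a log scale, each point is a gene, the dashed line and the grey band give the median and the quartile range of protein-coding genes without a promoter peak, and the red line is the promoter window. Cdkn2c is nearest at 8955 bp, and Rb1, Cdkn2a and Cdkn2b lie beyond the median of 103200 bp.

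Over the 8 members without a promoter peak, the distance to the nearest peak ran from 8955 to 202986 bp with a median of 85310 bp. The 16902 protein-coding genes without one lay at a median distance of 103200 bp (quartiles, 35300 and 344100 bp), so these members lay among other such genes. In 5 of the 8, the nearest peak sat over the TSS of a neighbour: Stk38 for Cdkn1a, Nap1l4 for Cdkn1c, Faf1 for Cdkn2c, Rpn2 and Mroh8 for Rbl1, and Aktip for Rbl2. For Cdkn2a, Cdkn2b and Rb1 it was a narrow peak away from any TSS. How often either case held among all protein-coding genes without a promoter peak was not computed. These counts are therefore no trait of the members. Cdkn2a, Cdkn2b and Rb1 had 0 peaks within 100 kb of their first coding TSS. So did 41.5% of protein-coding genes, so this does not set them apart.

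Promoter peaks were more frequent where the TSS was rich in CpG. Protein-coding genes were divided into quintiles by their CpG ratio in the 500 bp on either side of the first coding TSS. The share with a promoter peak was 2.68% in the lowest quintile (117 of 4371), 6.84% in the next, 19.4% in the middle, 37.2% in the fourth (1624 of 4370) and 48.8% in the highest (2135 of 4371). The members were mostly of the CpG-rich kind. The highest quintile held 6 of them, of which 1, Cdkn1b, had a peak. The fourth held 3, of which 1, Cdkn2d, had a peak, and the lowest held Cdkn1a, which had none. This placement depends on the start used. Later starts of Cdkn1a (0.622, at 29093769), Cdkn2a (0.538) and Cdkn2c (0.625) had ratios in the range of the middle quintile. Another later start of Cdkn1a, at 29097900, had a ratio of 0.274, in the range of the quintile next to the lowest. The 8 members without a peak had a median CpG ratio of 0.847, against 0.415 for all protein-coding genes without one and 0.776 for those with one, and 7 of the 8 stood in the 2 highest quintiles. Cdkn2d, with a ratio of 0.669, had a peak while Rb1, at 1.05, had none.

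**Figure D4:**
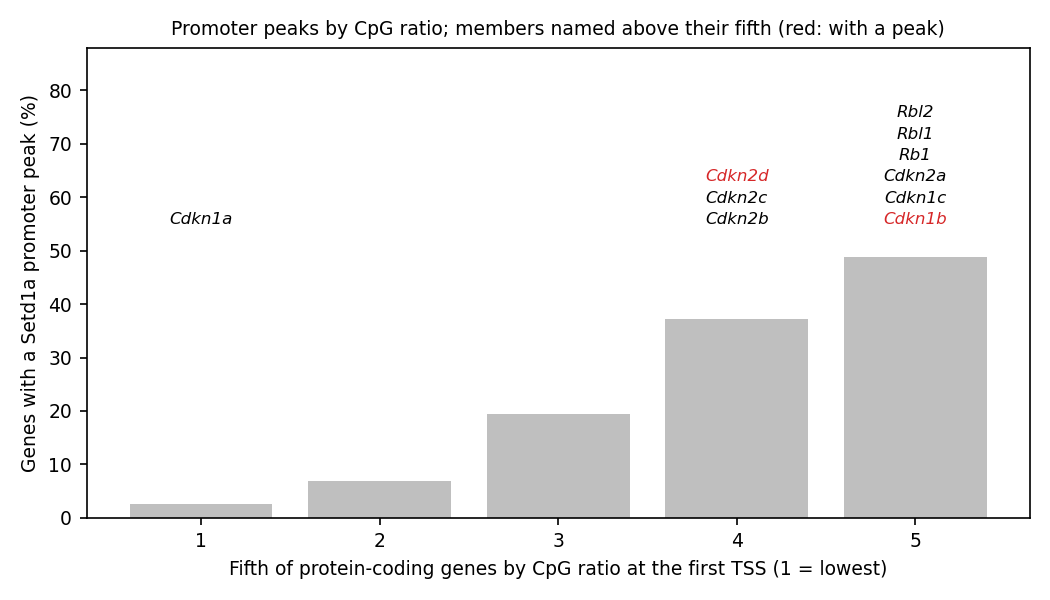
Share of protein-coding genes with a Setd1a promoter peak by quintile of CpG ratio at the first coding TSS. The vertical axis is the percent of genes in the quintile, the horizontal axis the quintile from lowest to highest, and the members are named above their quintile, in red where they have a peak. The bars rise from 2.68% to 48.8%, and Cdkn1b and Cdkn2d are the members in red.

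The motifs were counted in the 300 bases from 250 before to 50 after each coding TSS, on both strands, in 15 member promoters that stand at least 500 bp apart. An E2F match was present in 4 of the 15, those of p19Arf, Cdkn2d, Rb1 and Rbl1, against 2.84% of 21861 protein-coding promoters and 4.36% of those with a peak. Of these 4 promoters, Cdkn2d had a Setd1a peak. A GC box was present in 11 of the 15 (43.8% of all, 66.0% of those with a peak), with 7 matches at the main start of Cdkn1c and 5 at that of Rb1. The CCAAT box was in 6 (39.0% and 42.0%), CHR in 3 (16.3% and 11.1%), which were those of Cdkn2b, Cdkn2d and Rbl2. The CRE was in 1, that of Cdkn2b (2.46% and 4.16%), the E-box in 1, at the later start of Cdkn2c (7.71% and 10.8%), and the TATA box in 1, at Cdkn1c (12.6% and 5.62%). Promoters of 1 gene share its neighbourhood and are not independent, and the window of the counts runs past the stretches printed above. The 15 include several starts of some genes, whereas the 21861 are about 1 promoter for each of 22028 genes, so the units differ. The letters of E2F, GC box, CRE and E-box contain CpG, and the members were mostly CpG-rich. The part of CpG content in these counts was not tested.

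Among 59 other genes of the pathway, 30 had a promoter peak, or 50.85% against the 22.9% of all protein-coding genes. These genes were CpG-rich too, since 22 of the 30 with a peak and 23 of the 29 without stood in the 2 highest quintiles, and the part of CpG content in this share was not tested. In 16 of the 30 the nearest peak lay over a TSS. In the rest it lay off the TSS, as for Foxo3 (633 bp away), Trp53 (885 bp) and Ddb1 (2398 bp). With peaks given to the nearest TSS only, 23 of the 59 had one, so some of these peaks lay nearer to the TSS of another gene. Where a gene had several promoter peaks, as Ccnd1 (2), Lin37 (4) and Smad1 (2) did, its width is that of the peak nearest to a TSS.

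Of the targets of the inhibitors, 3 of 5 D cyclins and their kinases had a peak. The peak of Ccnd3 was 834 bp wide and 2741 bp from a TSS, that of Cdk4, the kinase bound by INK4 proteins, was 761 bp wide and over its TSS, and the nearer of the 2 promoter peaks of Ccnd1 was 306 bp wide. Of the cyclins E, A and B with Cdk1 and Cdk2, 4 of 8 had one, each over a TSS. They were Ccne2 (775 bp), which starts S phase with Cdk2, Ccna2 (740 bp), Ccna1 (737 bp) and the mitotic cyclin Ccnb1. All the peaks of this group belonged to cyclins.

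Of the E2F and DP factors that the pocket proteins bind, 4 of 10 had a peak. The widest was that of E2f8, a repressor, at 769 bp, followed by Tfdp2 (688 bp), a dimer partner of E2F factors, and E2f1 (554 bp), an activator, and E2f3 had one too. Of the MuvB and DREAM genes, 4 of 7 did: Dyrk1a (1536 bp), the kinase that triggers assembly of DREAM by phosphorylating Lin52, then Lin52 itself (900 bp), Rbbp4 (867 bp) and Lin37. The other 3 genes of this group, Lin9, Lin54 and Mybl2, had none, nor had E2f4, the E2F partner of p130.

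Genes for the turnover of the inhibitors and cyclins had peaks in 7 of 11. The widest belonged to Dtl (1535 bp), the substrate receptor through which p21 is degraded in S phase, Fbxw7 (1210 bp), the receptor for cyclin E, and Cks1b (892 bp), the cofactor that lets the Skp2 ligase bind p27. Rnf123, Cul4a, Rbx1 and Ddb1 were the others. Of the upstream regulators, 8 of 18 had a peak, led by Foxo3 (1127 bp), a factor known for activating Cdkn1b and for keeping NSCs quiescent, Trp53 (684 bp), which activates Cdkn1a, and Rnf2 (638 bp), a Polycomb subunit. Mdm2, Kdm6b, Foxo1, Smad1 and Smad4 were the rest. Of the 3 Smad genes in the list, which act below BMP4, Smad5 had none.

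**Figure D5:**
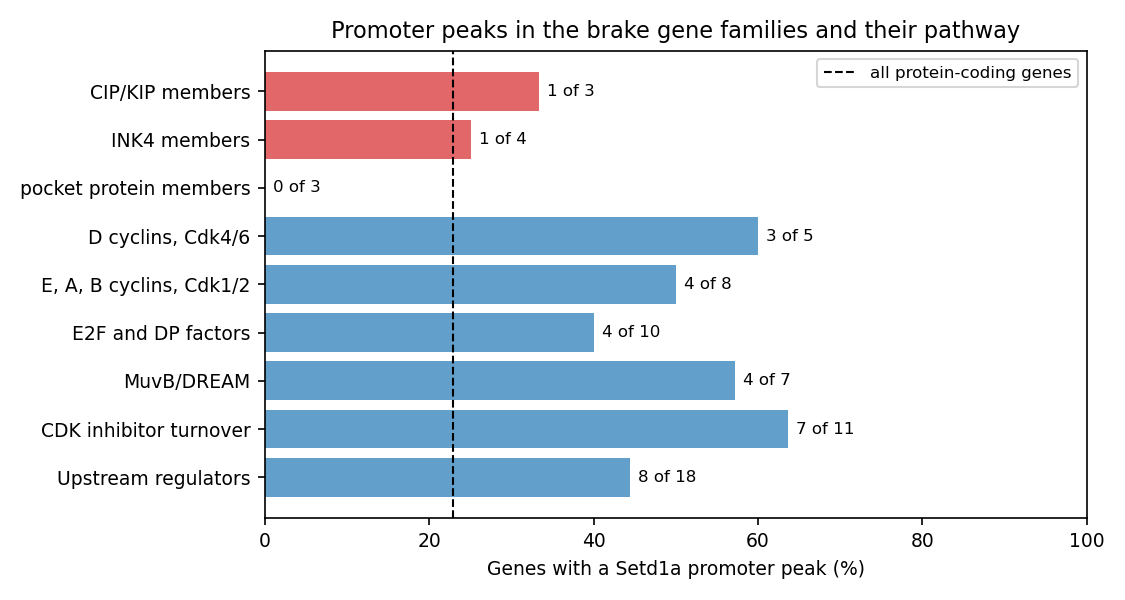
Promoter peaks in the inhibitor and pocket protein families and in the groups of the pathway. The horizontal axis is the percent of the genes of a group with a Setd1a promoter peak, with the counts printed at the bars, red bars for the families and blue for the pathway, and the dashed line marks the 22.9% of all protein-coding genes. The bars run from 0 of 3 pocket protein genes to 7 of 11 turnover genes.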

How the data were processed

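CUT & RUN libraries were made with an EpiCypher kit from cultured quiescent adult NSCs, 2 with a Setd1a antibody and 1 with IgG. The submitters' processing notes name bcl2fastq 2.17.1.14, Trimmomatic 0.32, Bowtie2 2.1.0, SAMtools 0.1.18, MACS2 2.2.8 and the mm10 build. The authors called peaks with default parameters and deposited the intervals found in both Setd1a replicates, as a chromosome, start and end in bp, taken here as 1-based after the header's form. Whether IgG served as the control and how intervals of the replicates were joined are not given in the sources used here, and neither is the depth, so a wide or narrow interval may depend on that step.

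Peaks were set against GENCODE M21 transcripts with Python 3.11.15, numpy 2.4.6, pysam 0.24.0 and samtools 1.23.1, and drawn with matplotlib 3.10.9. Distances ran from the nearer peak edge to a TSS, and were 0 where the peak covered it. A gene had a promoter peak when an interval lay within 3000 bp of any of its TSSs, so 1 peak could count for several genes. The distance code was tested on placed intervals with known answers. RefSeq promoter entries matched 8 of the 10 genes, in 11 rows, all 11 equal to the genome sequence, and there was none for Cdkn1c and Rb1.

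All 10 members are named, and of the pathway the genes with a peak, with widths for the 3 widest of each group. Pathway genes without a peak were named after their values were seen. The members and lists were chosen with earlier results of these data known. Alternatives were windows of 1000 and 2000 bp, peaks given to the nearest TSS only, TSSs of protein-coding transcripts only, 1 TSS per gene, peaks at least 300 bp wide, peaks within 1000 bp merged, and a motif window from 500 bp before the TSS.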

Additional observations from a re-analysis of the deposited data

How the results depend on the processing

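In each alternative but 1, 2 of the 10 genes had a promoter peak, and they were Cdkn1b and Cdkn2d each time. The exception, a window of 10000 bp chosen after seeing the data, gave 3 by adding Cdkn2c, while protein-coding genes rose to 6180 (28.1%). Over all alternatives the protein-coding genes with a promoter peak ran from 4001, with peaks given to the nearest TSS only, to 6180, and the pathway genes from 23 to 33 under the same settings. With a motif window from 500 bp before the TSS, CHR was in 5 of the 15 member promoters, the E-box in 2 and the TATA box in 2. The longer window holds more letters, and shares of all promoters were not computed for it. The other 36 recomputed values stayed within 1.5 times the reported ones. They include the CCAAT box, which rose from 6 to 9 of the 15 promoters with the longer motif window, just at that limit. No paired analysis was possible because both replicates were merged into 1 list, and for the same reason neither replicate could be left out. The unknown depth limits what absence from the list can show.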
